A study of Mus musculus with 6 samples.

Results

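The chaperonin CCT (also called TRiC) is the cytosolic folding chamber of eukaryotic cells, and the genes of its 8 subunits, Tcp1, Cct2, Cct3, Cct4, Cct5, Cct6a, Cct7 and Cct8, were examined in tibialis anterior (TA) muscle. The subunits were taken by name as the known members of the complex, by a rule that uses no measured value, though with earlier results of these data known, and all 8 were present among the 13226 genes of the count table. Whole TA muscles of male C57BL/6 mice aged 8 weeks were injected with adeno-associated viral vectors of serotype 6, and RNA was sequenced 7 days later from 3 muscles given AAV6:Yap-shRNA, a hairpin RNA against the Hippo pathway effector Yap, and 3 control muscles. The vector field of the control samples names AAV6:LacZ-shRNA whereas their titles name an empty vector, so they are called control here. Treated and control muscles were contralateral limbs of 3 animals, and all mice were otherwise untreated. The Yap hairpin was carried on a backbone that also encodes eGFP behind the CMV promoter, and a whole muscle holds vessels, connective tissue and immune cells beside its fibres.

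CCT is built from a pair of stacked rings, each with 1 copy of every subunit at a fixed place. Newly made actin and tubulin, which cannot reach their folded state unaided, are closed inside the chamber and released after ATP hydrolysis, as are several proteins with WD40 propellers such as the G protein beta subunits. Prefoldin hands clients to the chamber, and phosducin-like proteins act with it as cochaperones. In each ring the products of Tcp1, Cct4, Cct2 and Cct5 lie side by side and take up ATP more readily, and those of Cct7, Cct8, Cct6a and Cct3 form the opposite side. Because each complex needs every subunit in equal number, the relative levels of the 8 transcripts are of interest as well as their sum. In muscle the chamber serves the actin of the thin filament.

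The CCT subunits showed no detectable difference between muscles given Yap-shRNA and control muscles at 7 days. The estimated change of the 8 transcripts lay between -0.10 and 0.04 on the log2 scale, with 4 subunits higher, 4 lower and a median of -0.00085, beside a median of -0.0029 over all 13226 genes. The summed level of the 8 transcripts was 925 ± 70.1 CPM (counts scaled to library size with TMM factors, mean ± SD, n = 3) in control muscles and 915 ± 24.8 CPM (n = 3) in Yap-shRNA muscles, 99.0% of control. No subunit had all 3 Yap-shRNA muscles above or below all 3 control muscles. Over all genes this held for 2.56% (above) and 2.71% (below), so its absence among 8 genes says little about the subunits.

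The targeted gene served as a check of the labels. Yap1 stood at 71.2, 65.3 and 68.4 CPM in the control muscles and at 32.0, 23.9 and 39.5 CPM in the Yap-shRNA muscles, so that every Yap-shRNA muscle lay below every control. Its log2 fold change was -1.10 (SE 0.16), which did not pass the adjusted threshold of 0.05 over all genes (adjusted p = 0.436, edgeR quasi-likelihood test with Benjamini-Hochberg adjustment). Libraries held between 11987167 and 12710393 counts. Of these, 10791 to 12285 counts, or 0.0885 to 0.0976% of a library, fell on the CCT subunits. Each subunit received between 960 (Cct3) and 1801 (Cct5) counts in a library. At the mean counts of the control group, counting error alone gives a coefficient of variation (CV) of 2.44 (Cct5) to 3.12% (Cct3).

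Since Yap acts through TEAD factors bound to DNA and heat shock factor acts on chaperone genes, the starts of the CCT genes were searched for the letters GGAATG, the core of TEAD sites, and GAANNTTC, a pair of heat shock element units facing each other, on both strands. The search used RefSeq windows of 300 bases on GRCm38.p6, 250 before and 50 from the start site, and 9 windows were found for 7 of the 8 genes, with Cct4 not among them. GGAATG stood in 2 of these 9 windows, in Cct3 and Cct8, and in 14.7% of all 32851 windows. GAANNTTC stood in 1 of the 9, in Cct2, and in 7.86% of all windows. The stretches with these matches are given from 120 bases before to 30 bases from the start site, on the strand of the gene, with the matched letters in capitals. They cover chr3:88297015-88297164 on the plus strand for Cct3, chr16:87495840-87495989 on the minus strand for Cct8 and chr10:117063346-117063495 on the minus strand for Cct2.
Cct3: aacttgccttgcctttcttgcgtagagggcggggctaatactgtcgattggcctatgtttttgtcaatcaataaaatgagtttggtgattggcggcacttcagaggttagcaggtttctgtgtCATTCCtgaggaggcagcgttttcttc
Cct8: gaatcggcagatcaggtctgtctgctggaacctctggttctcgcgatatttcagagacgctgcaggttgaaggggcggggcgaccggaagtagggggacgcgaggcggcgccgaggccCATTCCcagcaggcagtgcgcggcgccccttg
Cct2: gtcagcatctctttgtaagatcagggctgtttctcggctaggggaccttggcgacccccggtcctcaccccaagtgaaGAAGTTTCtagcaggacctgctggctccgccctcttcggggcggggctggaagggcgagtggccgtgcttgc
In Cct3 and Cct8 the match was read on the opposite strand, so the capitals show its complement, CATTCC. Counted from 1 at the start site, with no position 0, it began at position 4 in Cct3 and at position -2 in Cct8. The Cct2 match began at position -42 of a RefSeq start that lies 439 bases inside the gene model used for counting below, and the other Cct2 window, 38 bases from that model's start, held neither motif. The windows of Tcp1, Cct5, Cct6a and Cct7 held neither motif. The only windows of Tcp1 and Cct6a were set on RefSeq starts 628 and 358 bases from the start of the gene model. For these genes the start of the gene model itself was not searched. A match of letters does not show that a factor was bound, and these windows leave out more distant sites. The differences of the 3 genes with a match, Cct2, Cct3 and Cct8, lay between -0.0079 and 0.020 on the log2 scale.

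Tcp1, Cct4, Cct2 and Cct5, on the side of the ring that takes up ATP more readily, are described first. Tcp1 (ENSMUSG00000068039, GRCm38 chromosome 17, plus strand, 12915701 to 12925067) encodes the alpha subunit and had the narrowest spread of the 8. It was measured at 130, 129 and 124 CPM in the control muscles and at 128, 134 and 129 CPM in the Yap-shRNA muscles. The groups overlapped, and the CV between muscles, 2.41% in controls and 2.32% in Yap-shRNA, was no larger than that of counting alone. The log2 fold change was 0.03 (SE 0.08), with a 95% interval of -0.16 to 0.22, or a change between -10.2 and 16.9%.

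Cct4 (ENSMUSG00000007739, chromosome 11, plus strand, 22990519 to 23003780) encodes the delta subunit. Its levels were 96.7, 107 and 99.4 CPM in controls and 101, 96.7 and 98.3 CPM in Yap-shRNA muscles, so that the highest value belonged to control 2. This gave a log2 fold change of -0.03 (SE 0.09, 95% interval -0.23 to 0.17).

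Cct2 (ENSMUSG00000034024, chromosome 10, minus strand, 117051001 to 117063814), the gene of the beta subunit, stood at 106, 113 and 105 CPM in controls and at 114, 111 and 103 CPM in Yap-shRNA muscles. It was the only subunit in which the highest and the lowest level both came from Yap-shRNA muscles. Its log2 fold change was 0.02 (SE 0.09, 95% interval -0.18 to 0.22).

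Cct5 (ENSMUSG00000022234, chromosome 15, minus strand, 31590800 to 31601804) encodes the epsilon subunit and had the largest estimated difference of the 8. It was measured at 121, 151 and 137 CPM in controls and at 123, 132 and 127 CPM in Yap-shRNA muscles. All 3 Yap-shRNA values fell within the span of the controls, from control 1 at the bottom to control 2 at the top. The log2 fold change was -0.10 (SE 0.10), and the 95% interval ran from -0.33 to 0.14, or from -20.4 to 9.89%. Of all genes, 47.6% had a log2 fold change of larger size than that of Cct5.

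On the other side of the ring, Cct7 (ENSMUSG00000030007, chromosome 6, plus strand, 85451514 to 85468475), the gene of the eta subunit, showed the same arrangement as Cct5. Its levels were 115, 145 and 140 CPM in controls and 129, 120 and 132 CPM in Yap-shRNA muscles, so the Yap-shRNA values again lay inside the control span. The log2 fold change was -0.07 (SE 0.11, 95% interval -0.32 to 0.18).

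Cct8 (ENSMUSG00000025613, chromosome 16, minus strand, 87483326 to 87495873) encodes the theta subunit. It stood at 107, 128 and 122 CPM in controls and at 116, 127 and 114 CPM in Yap-shRNA muscles, with group means of 119 CPM in both. The estimate was a log2 fold change of 0.0062 (SE 0.10, 95% interval -0.22 to 0.23).

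Cct6a (ENSMUSG00000029447, chromosome 5, plus strand, 129786998 to 129846371), the gene of the zeta subunit, had the widest interval. It was measured at 105, 135 and 110 CPM in controls and at 113, 134 and 113 CPM in Yap-shRNA muscles. In each group 1 muscle, numbered 2 in both, stood above the other two. The CV was 13.8% in controls and 10.1% in Yap-shRNA, against a counting CV of 2.64 and 2.58%. Its log2 fold change was 0.04 (SE 0.12), with a 95% interval of -0.24 to 0.32, or -15.3 to 24.6%.

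Cct3 (ENSMUSG00000001416, chromosome 3, plus strand, 88297116 to 88321767) encodes the gamma subunit and had the lowest CPM of the 8 in every library. Its levels were 79.2, 91.7 and 78.9 CPM in controls and 80.5, 88.8 and 78.9 CPM in Yap-shRNA muscles, again with the muscles numbered 2 on top. The log2 fold change was -0.0079 (SE 0.10, 95% interval -0.24 to 0.22).

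**Figure D1:**
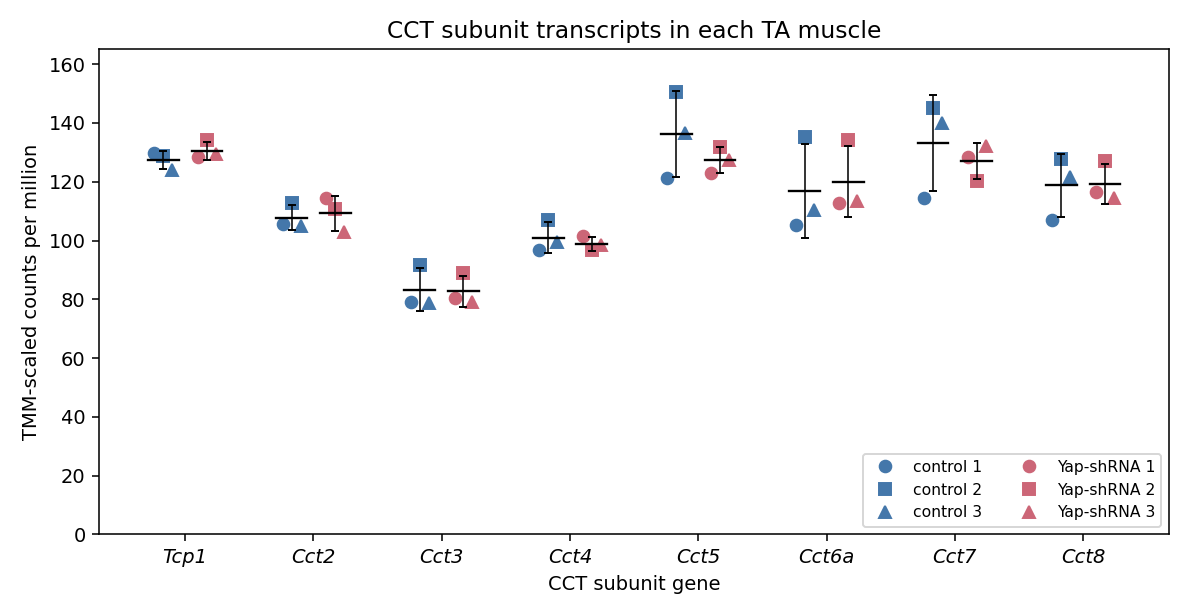
TMM-scaled levels (CPM) of the 8 CCT subunits, with 1 point for each muscle (control blue, Yap-shRNA red, symbols by replicate number), a bar at the group mean and whiskers of 1 SD (n = 3). The groups overlap in all 8 genes, with means between 82.8 CPM for Cct3 and 136 CPM for Cct5.

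None of the 8 subunits passed the adjusted threshold of 0.05 (adjusted p = 1.00 for each, edgeR quasi-likelihood test), and neither did any other gene, the background being 0%. At an unadjusted p below 0.05 the counts were 0 of 8 subunits and 232 genes, or 1.75% of all genes, and the unadjusted p of the subunits ranged from 0.373 for Cct5 to 0.952 for Cct8. Other tools called 5 genes (DESeq2) and 5 genes (edgeR, likelihood ratio) at the adjusted threshold, none of them a CCT subunit. Groups without overlap were found for 0 of 8 subunits. Among all genes all Yap-shRNA muscles lay above all controls in 2.56% and below them in 2.71%. An exact permutation test over muscles, two-sided, gave p between 0.50 and 1 for the subunits, where the smallest value that 3 against 3 can give is 0.10.

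The intervals bound the difference of each subunit. Over the 8 genes the 95% intervals reached at most a difference of -20.4% (Cct5) and of 24.6% (Cct6a). Differences within a gene's own interval cannot be told from none at this number of muscles. The interval is not a limit of detection, and a difference outside it need not have passed the adjusted threshold. The standard errors of the subunits, 0.084 to 0.12 on the log2 scale, were below the median of all genes, 0.16. In bulk tissue fewer cells of a type and less RNA per cell cannot be told apart, which holds for each level given here.

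**Figure D2:**
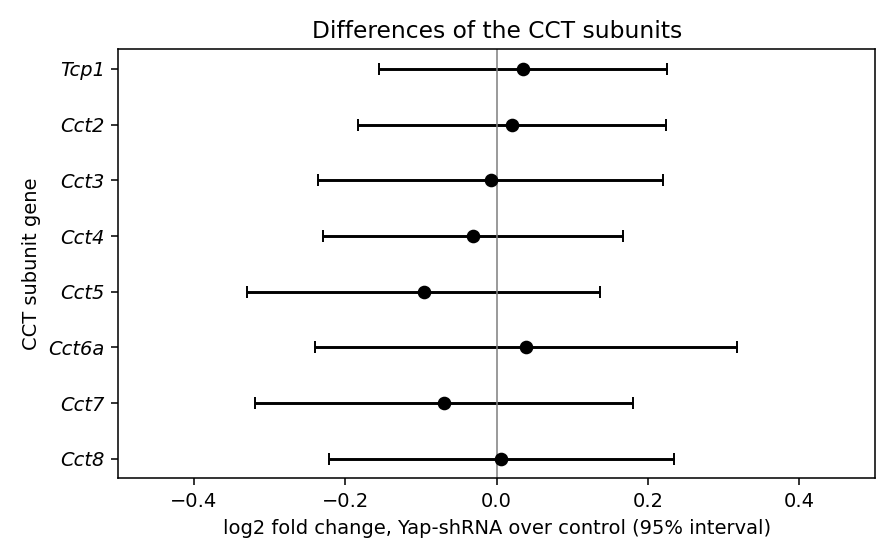
Log2 fold change of Yap-shRNA over control for each CCT subunit (points) with the 95% interval of the edgeR quasi-likelihood fit (whiskers). All 8 intervals span 0, from -0.33 at the lowest (Cct5) to 0.32 at the highest (Cct6a).

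Muscles of 1 group differed in their summed CCT level by more than the group means did. The summed CCT level was 859, 999 and 916 CPM in the controls and 905, 943 and 897 CPM in the Yap-shRNA muscles. Controls 1 and 2 thus marked the bottom and the top, and the Yap-shRNA muscles lay between them. Control 2 was the highest library in 6 of the 8 subunits, and control 1 the lowest in 4, Cct5, Cct6a, Cct7 and Cct8. Without the TMM factors, which ranged from 0.969 to 1.05, the top place changed. The unscaled sums were 899, 968 and 890 CPM in controls and 900, 976 and 885 CPM in Yap-shRNA muscles, Yap-shRNA 2 was highest in 5 subunits and control 2 in 3. The highest library of all therefore depended on the scaling, as did the order of controls 1 and 3. By summed level, control 2 and Yap-shRNA 2 were the highest of their groups either way.

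**Figure D3:**
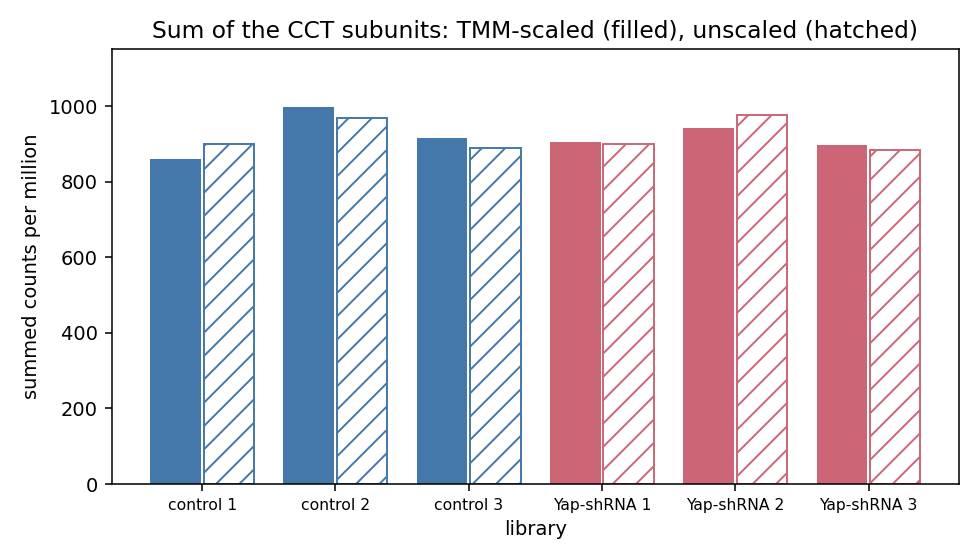
Summed CPM of the 8 CCT subunits in each library, scaled by TMM factors (filled bars) and unscaled (hatched bars), with controls in blue and Yap-shRNA in red. Scaled sums run from 859 CPM (control 1) to 999 CPM (control 2), and with unscaled values Yap-shRNA 2 is the highest at 976 CPM.

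Markers of other tissues differed between the libraries. The summed level of 6 tendon markers was 652 CPM in control 1 and 548 CPM in Yap-shRNA 3. In the other 4 libraries it was 128 to 177 CPM. Control 1 and Yap-shRNA 3 had the lowest scaled CCT sums. The lowest unscaled CCT sums were in Yap-shRNA 3 (885 CPM) and control 3 (890 CPM). The sum of 8 liver markers was 436 CPM in control 3 and 3.35 to 53.8 CPM elsewhere. The 10 macrophage markers summed to 238, 148 and 100 CPM in controls and to 172, 207 and 222 CPM in Yap-shRNA muscles. Their log2 fold changes were above 0 in 10 of 10 genes (median 0.34), none past the adjusted threshold. The 10 fibre markers summed to 141690 to 173547 CPM and were abundant in every library, with log2 fold changes below 0 in 10 of 10 genes (median -0.11), none past the threshold. The part of these tissues in the CCT levels was not tested. Without control 1 and Yap-shRNA 3, a choice made after seeing the data, 3 subunits were higher and 5 lower with a median log2 fold change of -0.02. Without control 3, the counts were likewise 3 and 5, with a median of -0.02. Leaving out control 1 alone gave 2 higher and 6 lower (median -0.05), and leaving out control 2 gave 6 higher and 2 lower (median 0.05). The split into higher and lower subunits thus rested on single muscles, while no subunit passed the adjusted threshold in any of these fits.

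The order of the 8 transcripts was read per length. Scaled by the merged length of all annotated exons, the mean level over the 6 libraries was 47.6 CPM per kb for Cct5, 42.5 for Cct2, 38.5 for Cct8, 32.7 for Cct6a, 25.7 for Tcp1, 23.8 for Cct4, 19.2 for Cct7 and 13.0 for Cct3. Neighbours in this order stood the same way in all 6 libraries, except Cct5 and Cct2, which did so in 5. The highest level was 3.66 times the lowest. These values depended on the length chosen, because merged exons include retained introns and alternative ends. For Cct3 the merged length was 6370 nucleotides and that of the longest coding transcript 1977, and for Cct7 they were 6778 and 2441.

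With the length of the longest coding transcript the spread of the subunits narrowed to 1.77 times. By mean level Cct5 (71.1 CPM per kb) and Cct2 (55.4) remained at the top. Cct7 (53.3), Tcp1 (52.8), Cct8 (49.7), Cct6a (48.3), Cct3 (42.0) and Cct4 (40.2) followed. With this length Cct5 stood above Cct2 in all 6 libraries, but Cct8 above Cct6a in only 4. The other neighbours in this order were not compared library by library, so their places are those of the means alone. For Cct6a, whose gene is annotated as non-coding in this annotation release although it encodes the zeta subunit, the longest transcript of 2454 nucleotides was used. In the order of means the place of Cct7 moved most, from the seventh to the third. Under both lengths Cct5 had the highest mean, and on the merged scale every subunit lay above 82.2% of all genes.

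**Figure D4:**
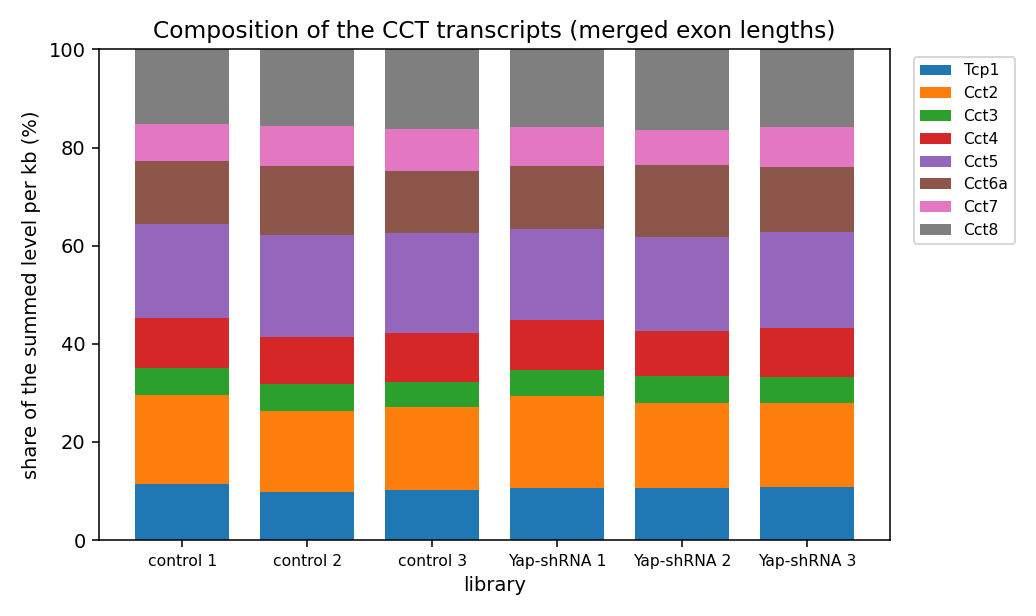
Share of each CCT subunit in the summed level per kb of the 8 (merged exon lengths, percent, stacked bars) in each library. The shares run from 5.12 to 5.57% for Cct3 and from 18.6 to 20.6% for Cct5. That of Cct7, with the largest CV, runs from 7.08 to 8.56%.

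The composition of the CCT transcripts was read as the share of each subunit, without a comparison to unrelated genes of like abundance. On the merged scale Cct5 made up 20.1 ± 0.69% of the summed level per kb in controls and 19.0 ± 0.50% in Yap-shRNA muscles (SD, n = 3). Tcp1 made up 10.4 ± 0.86% in controls and 10.7 ± 0.15% in Yap-shRNA muscles. Over the 6 libraries the CV of a subunit's share ranged from 2.73% (Cct8) to 6.91% (Cct7), and that of its level from 2.50% (Tcp1) to 10.9% (Cct6a). For Cct6a the CV of its share was 6.33%, below that of its level, whereas for Tcp1 the CV of the share, 5.47%, was above that of the level.

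Genes outside the complex with the most similar course over the 6 libraries were sought among 7261 genes with a mean of at least 10 CPM, by the root mean square difference from the mean centred log2 profile of the subunits. The 5 nearest were Gnb2 (0.017), Parp3 (0.022), Ddx23 (0.022), Tmem115 (0.025) and Afg3l1 (0.025), against a median of 0.14 over the candidates. The subunits themselves lay between 0.039 (Cct8) and 0.091 (Cct7) from their common mean. Each subunit is part of that mean, which lowers its own distance, and the candidates reach down to 10 CPM. The distances of the subunits are therefore no measure of shared behaviour. The 6 libraries share depth and scaling across all of these genes, so likeness of profile is a description only.

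Several CCT genes share a start region or an end with a gene on the opposite strand. Mrpl18, which encodes a mitochondrial ribosomal protein, starts 644 bases from Tcp1 with 141 bases of exonic overlap. It was measured at 38.8, 56.9 and 49.2 CPM in controls and at 48.5, 46.9 and 46.4 CPM in Yap-shRNA muscles, with a log2 fold change of -0.03 (SE 0.13). Psph, a phosphatase of serine synthesis, overlaps the exons of Cct6a over 452 bases and stood between 10.7 and 14.1 CPM, with a log2 fold change of 0.02 (SE 0.15). Pradc1 overlaps Cct7 over 214 exonic bases and stood between 9.34 and 16.6 CPM, with a log2 fold change of -0.03 (SE 0.20).

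At the other end, Usp16, a deubiquitinase of histone H2A, shares 192 exonic bases with Cct8 and was measured between 36.2 and 43.1 CPM, with a log2 fold change of -0.0046 (SE 0.11). Fam173b starts 48 bases from Cct5 and stood between 9.41 and 10.7 CPM, with a log2 fold change of -0.05 (SE 0.13). Tsacc starts 117 bases from Cct3, at 1.01 to 1.92 CPM and a log2 fold change of -0.08 (SE 0.36). None of these 6 neighbours passed the adjusted threshold (adjusted p = 1.00 for each, edgeR quasi-likelihood test) and in none were the groups apart. Over all genes the groups were apart in 2.56% (Yap-shRNA above) and 2.71% (Yap-shRNA below). The largest exonic overlap, 571 bases, was that of Tcp1 with Acat3 on the opposite strand, a gene that was not in the count table. Strand was not stated for the counting, so reads in the shared exons cannot be assigned with certainty.

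Sequence shared in the same orientation was counted over stretches of annotated transcripts, which leaves out the overlaps with genes of the opposite strand given above. No stretch of 50 bases was common to the annotated transcripts of any pair of subunits, and between 0% (Cct2, Cct5 and Cct8) and 4.37% (Cct6a) of a subunit's stretches of that length occurred in another annotated gene. The pseudogene Cct3-ps1, with 28 such stretches in common with Cct3, had 13 to 27 counts in a library against 960 to 1157 for Cct3. The paralogs Cct6b and Cct8l1 were not among the genes in the table.

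The partners and clients of CCT were read in the same way, from 8 lists of chaperones, cofactors and clients, and none of their 64 genes in the table passed the adjusted threshold. All 3 Yap-shRNA muscles lay above all controls in 4 of these genes (6.25%, against 2.56% of all genes) and below them in 2 (3.12%, against 2.71%). All 6 prefoldin subunits had log2 fold changes below 0, with a median of -0.09. Pfdn5 stood at 47.9, 56.8 and 48.3 CPM in controls and at 48.2, 44.7 and 48.6 CPM in Yap-shRNA muscles (log2 fold change -0.11, SE 0.10), and Pfdn1 had a log2 fold change of -0.11 (SE 0.11), with overlap in both. Pfdn4 was the 1 prefoldin gene without overlap, at 7.08, 7.78 and 7.38 CPM in controls and 5.79, 6.68 and 6.38 CPM in Yap-shRNA muscles, with a log2 fold change of -0.24 (SE 0.15, adjusted p = 1.00, edgeR). For comparison, 48.9% of all genes had a log2 fold change above 0.

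The cochaperones and cofactors showed no common direction. Of the 3 phosducin-like and thioredoxin-like genes tested 1 was higher and 2 lower, and Pdcl3, the most abundant, had a log2 fold change of -0.04 (SE 0.13). Of the 6 tubulin folding cofactors 2 were higher and 4 lower (median -0.0091), with Arl2, the GTPase of the cofactor complex, at -0.09 (SE 0.16). None of these 9 genes separated the groups, beside 2.56% of all genes with Yap-shRNA above and 2.71% with Yap-shRNA below.

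Among the clients the actins held the largest difference of these lists. Acta1, the skeletal actin and the bulk of the list, stood at 40334, 45026 and 46013 CPM in controls and at 42391, 35056 and 47995 CPM in Yap-shRNA muscles, with a log2 fold change of -0.07 (SE 0.12). Actc1, the cardiac actin made in developing and regenerating muscle, stood at 374, 481 and 341 CPM in controls and at 125, 255 and 161 CPM in Yap-shRNA muscles, without overlap. Its log2 fold change was -1.14 (SE 0.24), with an unadjusted p of 0.00099 in edgeR. After adjustment over all genes edgeR gave an adjusted p of 1.00 (quasi-likelihood) and an adjusted p of 0.0139 (likelihood ratio), while DESeq2 gave an adjusted p of 0.837. Of the settings tried, Actc1 passed the threshold in the likelihood ratio test alone.

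Acta2, the smooth muscle actin, had a log2 fold change of -0.49 (SE 0.27) and the cytoplasmic Actb one of 0.04 (SE 0.16), both with overlap. The value of Acta2 was -0.19 without control 2, -0.29 without Yap-shRNA 2 and -0.75 without Yap-shRNA 3. Over the 9 actin and actin-related genes tested 6 were higher and 3 lower, with a median of 0.04.

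Of 12 tubulins tested 11 had log2 fold changes above 0 and 1 below, with a median of 0.16. Tubb6, a beta tubulin isotype, stood at 31.8, 24.4 and 23.7 CPM in controls and at 37.8, 35.6 and 48.5 CPM in Yap-shRNA muscles, the 1 tubulin without overlap. Its log2 fold change was 0.61 (SE 0.15), with an unadjusted p of 0.0034 and an adjusted p of 1.00 (edgeR). Tubb4b had a log2 fold change of 0.26 (SE 0.12) and Tuba4a, the most abundant tubulin, one of 0.10 (SE 0.13), both with overlap.

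Of the 11 WD40 and other clients 4 were higher and 7 lower (median -0.02). Gnb2, a G protein beta subunit, was measured at 90.1, 105 and 98.3 CPM in controls and at 97.4, 99.2 and 95.5 CPM in Yap-shRNA muscles, with a log2 fold change of -0.0051 (SE 0.09). Rptor, the scaffold of mTORC1, was the 1 gene of the list without overlap, at 40.5, 39.0 and 38.2 CPM in controls and 42.2, 43.7 and 42.5 CPM in Yap-shRNA muscles (log2 fold change 0.13, SE 0.09).

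The heat shock proteins of the cytosol, mitochondria and endoplasmic reticulum, with Hsf1, had 12 of 14 log2 fold changes above 0 and a median of 0.10. Groups did not overlap for Hspa5, the Hsp70 of the endoplasmic reticulum (163, 162 and 160 CPM against 171, 176 and 176 CPM, log2 fold change 0.11, SE 0.08), and for Dnaja1, a partner of Hsp70 (0.22, SE 0.14). Hsp90ab1, the most abundant of the list, had a log2 fold change of 0.09 (SE 0.09). Of the 3 myosin chaperones 1 was higher and 2 lower, with Unc45b at 0.05 (SE 0.10) and Smyd1 at -0.01 (SE 0.11).

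**Figure D5:**
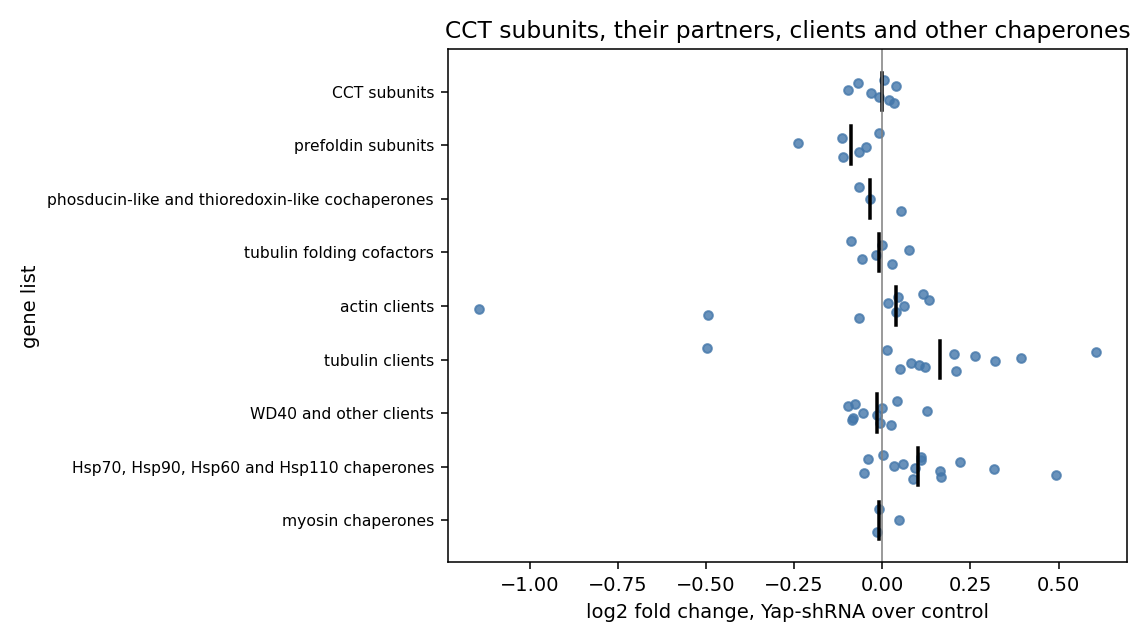
Log2 fold change of Yap-shRNA over control for the genes of 9 lists (points, 1 for each gene in the table) with the median of each list (bars). The CCT subunits lie between -0.10 and 0.04, closer together than the tubulin list, which runs from -0.50 to 0.61. The myosin chaperones (-0.013 to 0.048) and the phosducin-like and thioredoxin-like list (-0.065 to 0.054), with 3 genes each, span less than the CCT subunits. Actc1 stands apart in the actin list at -1.14.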

How the data were processed

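Polyadenylated RNA of whole TA muscles was sequenced from TruSeq libraries, and the authors deposited raw read counts per gene, without normalisation. Base calling used bcl2fastq 2.20.0.422 and the build was GRCm38, per the labels. The aligner and counter of these libraries are not given in the sources used here. No gene had fewer than 60 counts over the 6 libraries. All 6 columns matched a sample by name. Within a group, chi-square values per degree of freedom between libraries were 7.62 to 21.4, where sampling alone gives about 1, so no library repeated another of its group. Control libraries were not compared with Yap-shRNA libraries in this way.

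Counts were scaled by TMM and tested in R 4.3.3 with the quasi-likelihood test of edgeR 4.0.16, with group as the only term and Benjamini-Hochberg adjustment over 13226 genes (threshold 0.05). Standard errors were derived from the log2 fold change and the F statistic, and 95% intervals use the same degrees of freedom. The script was tested on simulated counts. The study names 3 animals, and which control and treated muscles share an animal is not stated, so p-values measure only the spread between these muscles. Intervals of counting error do not cover PCR duplicates.

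Gene models came from GENCODE release M21 on GRCm38, which held 13199 of the table's genes, and promoter sequences from RefSeq. Merged exon length was the main length and that of the longest coding transcript the alternative. Genes named beside the subunits were, by rule, up to 3 of each list with the smallest unadjusted p and 3 with the highest CPM, from which the text gives a selection, with overlapping or neighbouring genes and the 5 nearest profiles. Cct3-ps1 was added after its values were seen. The members and lists were chosen with earlier results of these data known. Alternatives were DESeq2 1.42.0, the likelihood ratio test, 2 other scalings, a stricter count filter, a replicate block and leaving out each muscle. A setting without a count filter was also listed and was the same as the main fit.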

Additional observations from a re-analysis of the deposited data

How the results depend on the processing

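No CCT subunit passed the adjusted threshold under any alternative, with the lowest adjusted p, 0.723, reached without control 1 (edgeR). The number of genes past it was 5 with DESeq2, 5 with the likelihood ratio test, 0 to 1 with each muscle left out in turn (1 without Yap-shRNA 3), and 3 without control 1 and Yap-shRNA 3 together, a choice made after seeing the data. Yap1 passed with DESeq2 (-1.10, adjusted p = 5.85e-07) and with the likelihood ratio test (-1.10, adjusted p = 2.22e-06). The causes were not tested.

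The log2 fold changes of 5 subunits changed sign when 1 muscle, or control 1 and Yap-shRNA 3 together, was left out, in ranges of -0.014 to 0.062 for Cct2, -0.062 to 0.067 for Cct3, -0.062 to 0.011 for Cct4, -0.048 to 0.16 for Cct6a and -0.064 to 0.063 for Cct8. Tcp1 (0.015 to 0.055), Cct5 (-0.17 to -0.019) and Cct7 (-0.20 to -0.0049) kept their direction in these fits, but their size moved by over 1.5 times, with Cct5 and Cct7 nearest to 0 without control 2. The same held for Acta2 (-0.82 to -0.19), Pfdn1 (-0.18 to -0.035), Pfdn5 (-0.18 to -0.030), Dnaja1 (0.13 to 0.29), Hsp90ab1 (0.049 to 0.13) and Tubb4b (0.16 to 0.38). The other named genes that changed sign in these fits ranged from -0.23 to 0.045 (Acta1), -0.10 to 0.19 (Actb), -0.22 to 0.12 (Arl2), -0.087 to 0.025 (Fam173b), -0.061 to 0.048 (Gnb2), -0.17 to 0.10 (Mrpl18), -0.15 to 0.11 (Pdcl3), -0.22 to 0.20 (Pradc1), -0.15 to 0.14 (Psph), -0.081 to 0.061 (Smyd1), -0.26 to 0.25 (Tsacc), -0.070 to 0.17 (Tuba4a), -0.014 to 0.11 (Unc45b) and -0.071 to 0.061 (Usp16). Of 350 refits of the 25 other named genes 323 kept direction and side of the threshold. These include a setting without a count filter, which repeated the main fit and so could not differ for any of the 25 genes.

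The replicate block, with the muscles of the same number paired, called 0 genes and gave a median of 0.00089 over the subunits and -1.13 for Yap1, and it changed no call. The study paired limbs within animals, but equal numbers are not stated to be 1 animal, and deviations of same-numbered muscles correlated at -0.07, 0.20 and -0.32 across genes. The highest subunit per length was 3.66 times the lowest with merged exons and 1.77 times with the longest coding transcript. Control 2 was highest in 6 subunits with TMM factors and in 3 without, also chosen after seeing the data. With 3 muscles a group, differences within the intervals given for each subunit cannot be told from none. The intervals are not limits of detection. Yap1, at a log2 fold change of -1.10, did not pass the adjusted threshold in the main fit.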
